A study of Mus musculus with 8 samples.

Results

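Chromosome 11 of the mouse was described along its length by the H3K36me3 peaks that lie on it. Its members are all peaks on this chromosome in the 4 lists called against Input, 45153 of 771051 on chromosomes 1 to 19, X and Y. They comprise 15889 and 16007 peaks in the WT libraries and 5852 and 7405 in the KO libraries. The chromosome was chosen by its WT coverage, as the one with the largest part of its length under WT peaks. Its WT coverage is therefore given as a description. WT coverage is also 1 side of each KO to WT test below. Counts and p-values on this chromosome are therefore not independent of the choice. Positions are in GRCm38, and the span described runs from base 3100015 to base 121975970, cut into 119 windows of 1 Mb.

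The libraries come from bone marrow stromal cells at passage 2 of C57BL/6J mice whose Setd2 gene is flanked by loxP sites (Setd2 fl/fl). All groups carry the floxed alleles. WT cells received a lentivirus for GFP and KO cells one for Cre recombinase, and both were then kept in puromycin (2 µg/ml, 4 days). Each genotype has 2 H3K36me3 libraries, 1 Input and 1 IgG library, and nothing in the labels says that the replicates are separate cultures or animals, so their spread may be technical. Peak lists carry no counts of reads, and library depth is unknown.

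Setd2 is the enzyme that trimethylates lysine 36 of histone H3 while it travels with elongating RNA polymerase II. H3K36me3 is therefore known as a mark of the bodies of transcribed genes, low at the promoter and higher toward the end of the gene. The WT map of a chromosome then tends to read as a map of which genes are transcribed in the cells. In bulk cells, fewer cells with a mark and less of the mark per cell cannot be told apart.

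The Setd2 gene itself, on chromosome 9, had 66.4% and 60.5% of its span in WT peaks and 0.690% and 1.70% in KO peaks, which reports the mark on the gene and not the deletion. Of 10 stromal marker genes over the genome, 8 had a mean WT coverage of at least 10%, and Thy1 was at 0. Of 8 haematopoietic markers 7 reached this level, with Cd3e at 0, and of 4 endothelial markers 0 did. The part that haematopoietic cells have in the values below was not tested.

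The promoters shown here let the reader compare what lies in front of the 2 kinds of gene that alternate along the chromosome. Each sequence is the 150 bases just before the annotated start, 5′ to 3′ on the strand of the gene, from RefSeq (GRCm38.p6), with every CG dinucleotide, the site of DNA methylation in mammals, in capitals. Mybbp1a, Kpnb1 and P4hb had over 80% of the gene in peaks in both WT libraries. Gabra6, Krt42 and Pom121l12 had no peak in any of the 4 libraries.
Mybbp1a (chr11:72441177-72441326, + strand): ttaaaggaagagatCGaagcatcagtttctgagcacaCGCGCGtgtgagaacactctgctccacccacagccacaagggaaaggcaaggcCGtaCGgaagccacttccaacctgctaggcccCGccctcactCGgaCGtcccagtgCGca
Kpnb1 (chr11:97187893-97188042, - strand): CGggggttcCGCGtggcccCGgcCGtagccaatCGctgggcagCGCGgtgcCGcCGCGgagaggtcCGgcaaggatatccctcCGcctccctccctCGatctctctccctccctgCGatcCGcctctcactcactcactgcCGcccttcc
P4hb (chr11:120573254-120573403, - strand): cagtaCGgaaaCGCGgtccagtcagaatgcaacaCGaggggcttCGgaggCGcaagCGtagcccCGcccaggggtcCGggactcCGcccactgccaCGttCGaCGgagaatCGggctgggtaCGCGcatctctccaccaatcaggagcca
Gabra6 (chr11:42321073-42321222, - strand): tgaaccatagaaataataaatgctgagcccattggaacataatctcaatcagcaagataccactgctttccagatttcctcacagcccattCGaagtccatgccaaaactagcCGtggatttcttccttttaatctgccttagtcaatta
Krt42 (chr11:100269952-100270101, - strand): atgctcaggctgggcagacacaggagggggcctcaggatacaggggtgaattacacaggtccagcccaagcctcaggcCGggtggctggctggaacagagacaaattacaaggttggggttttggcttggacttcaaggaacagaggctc
Pom121l12 (chr11:14599090-14599239, + strand; the stretch also overlaps the lncRNA gene 1700046C09Rik): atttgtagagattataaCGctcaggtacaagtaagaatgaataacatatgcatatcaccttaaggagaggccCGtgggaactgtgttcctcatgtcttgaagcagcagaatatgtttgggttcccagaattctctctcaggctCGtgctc
The 3 stretches before covered genes held 10, 17 and 16 CG, and the 3 before genes without a peak held 2, 1 and 3. These 6 were picked after their values were seen, and the whole set is described further down.

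Chromosome 11 also carries microRNA genes, and the mature sequences below belong to hairpins that lay wholly under WT peaks. The seed, bases 2 to 8, which pairs with target RNAs, is in capitals, and sequences are from RefSeq.
miR-103-3p (Mir103-1, inside Pank3): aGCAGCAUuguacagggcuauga
miR-744-5p (Mir744, inside Map2k4): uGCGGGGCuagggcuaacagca
miR-22-3p (Mir22, outside protein-coding spans): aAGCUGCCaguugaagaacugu
miR-146a-5p (Mir146, outside protein-coding spans): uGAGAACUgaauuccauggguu
miR-195a-5p (Mir195a, outside protein-coding spans): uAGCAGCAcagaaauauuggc
miR-497a-5p (Mir497, neighbour of Mir195a): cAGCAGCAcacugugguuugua
The last of these is shown because it shares the seed of miR-195a-5p: Mir195a was covered over 100% of its hairpin in both WT libraries, Mir497 over 71.4% in WT replicate 1 and 0% in WT replicate 2.

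Coverage of the whole chromosome was 14.4% and 13.9% of its bases in the WT libraries and 2.87% and 3.67% in the KO libraries. The means were 14.1% ± 0.409 and 3.27% ± 0.569 (SD, n = 2 each), a KO to WT ratio of 0.231. In bases, peaks took up 17.2 and 16.5 Mb in WT against 3.41 and 4.37 Mb in KO. The groups did not overlap in either quantity. Lists called against IgG gave 12.2% and 11.6% in WT against 1.89% and 2.42% in KO.

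Set beside the other 18 autosomes, the chromosome stood highest in WT and in the middle in KO. The others ranged from 7.16% to 12.0% in WT and from 3.05% to 3.89% in KO, with KO to WT ratios of 0.276 to 0.437. It held 7.07% and 7.00% of all covered bases in the WT libraries, 4.75% and 4.63% in the KO libraries, and it makes up 4.44% of the genome span. With 13.5 protein-coding genes per Mb it is among the most gene-dense autosomes, whose range is 5.79 to 13.9. Within protein-coding spans alone, 26.5% of its bases were covered in WT, against 16.7% to 24.2% on the others, and 3.10% in KO, against 2.93% to 3.87%. Over the 19 autosomes, which share their 4 libraries, genes per Mb and WT coverage had r = 0.80 and rho = 0.87, and genes per Mb and KO coverage r = 0.03 and rho = 0.18.

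**Figure D1:**
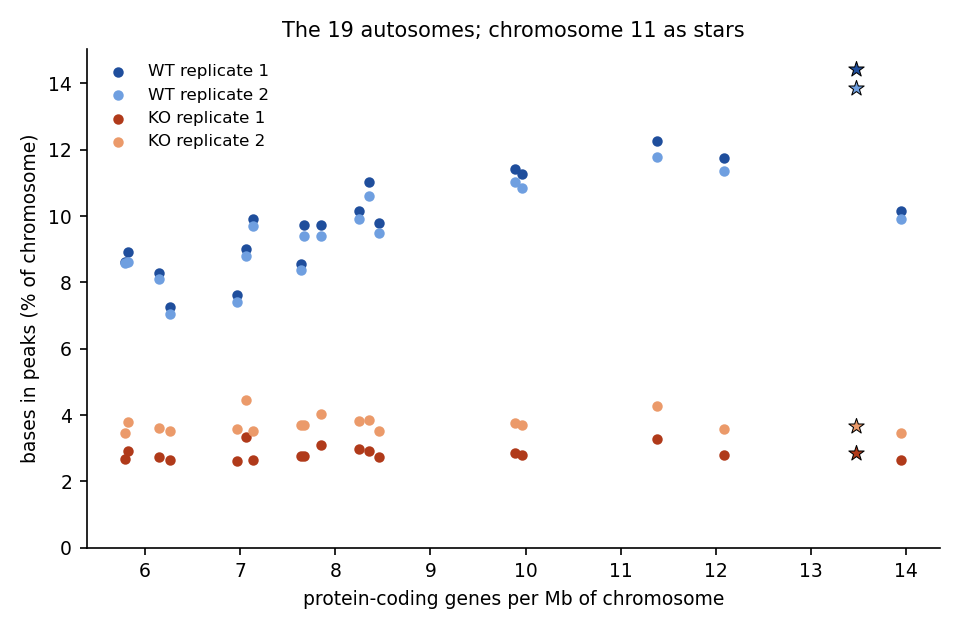
Percent of each autosome under peaks (y axis) against its protein-coding genes per Mb (x axis), 1 point per library and autosome, with chromosome 11 as stars. WT points climb with gene density to 14.4% and 13.9% on chromosome 11, while its KO points, 2.87% and 3.67%, lie among those of the other autosomes.

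Peaks were also narrower in KO. The mean width was 1080 and 1029 bp in WT against 583 and 590 bp in KO. The broad peaks that blanket gene bodies were nearly absent from the KO lists: 1713 and 1511 peaks in WT were wider than 2 kb, and 1 and 3 in KO. Widths did not overlap between genotypes, and the exact two-sided permutation test of 2 against 2 libraries gave p = 0.333, the smallest it allows. The widest WT peaks were 24162 and 23612 bp, over Sfi1, which encodes a centrosome protein, near the centromeric end. The widest KO peaks were 2110 and 2455 bp, over the zinc finger genes Zfp286 and Zfp3, and both lay almost wholly under WT peaks too (96.6% and 100%, and 100% and 97.4%, in the WT libraries).

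In WT most covered bases lay in protein-coding genes, and in KO their share there was close to the share of such genes in the chromosome. Protein-coding spans make up 47.0% of the chromosome. They held 88.2% and 88.0% of covered bases in the WT libraries and 45.6% and 43.9% in the KO libraries (exact two-sided permutation p = 0.333). Outside annotated genes, the covered length was alike in both genotypes: 1.68 and 1.64 Mb in WT against 1.55 and 2.08 Mb in KO, ranges that overlap. Inside protein-coding spans it was 15.1 and 14.5 Mb in WT against 1.55 and 1.92 Mb in KO.

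Peaks that 2 libraries shared differed between genotypes in the same way. The WT libraries had 49.3% of their joint covered bases in common and the KO libraries 4.84% (44.0% and 5.22% over all chromosomes). A WT and a KO library had 3.57% to 4.39% in common. These shares depend on the length of each list, so they do not rank the pairs. Of its bases, KO replicate 1 shared 10.5% with KO replicate 2, which covers 3.67% of the chromosome. It shared 20.8% with WT replicate 1, which covers 14.4%. Regions common to both WT libraries numbered 15345 and spanned 11.1 Mb, and 84.4% of them had no KO peak (82.2% over all chromosomes). The 1029 regions common to both KO libraries spanned 0.359 Mb, and 57.9% of them had no WT peak (59.4% over all chromosomes). Only 233 regions, 68.4 kb in all, were covered in all 4 libraries.

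Along the chromosome the WT lists rose and fell from window to window, while the KO lists stayed low and even. WT coverage of a window, as the mean of both libraries, ran from 0.123% to 38.5% with a median of 12.0%. KO coverage ran from 1.06% to 5.48% with a median of 3.34%. The SD over windows was 0.77 of the mean in WT and 0.29 in KO. The landscape was repeatable, with r = 0.998 between the WT libraries and 0.82 between the KO libraries over the 119 windows, and r = 0.30 between the genotypes' means; neighbouring windows share genes and all windows share their libraries.

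**Figure D2:**
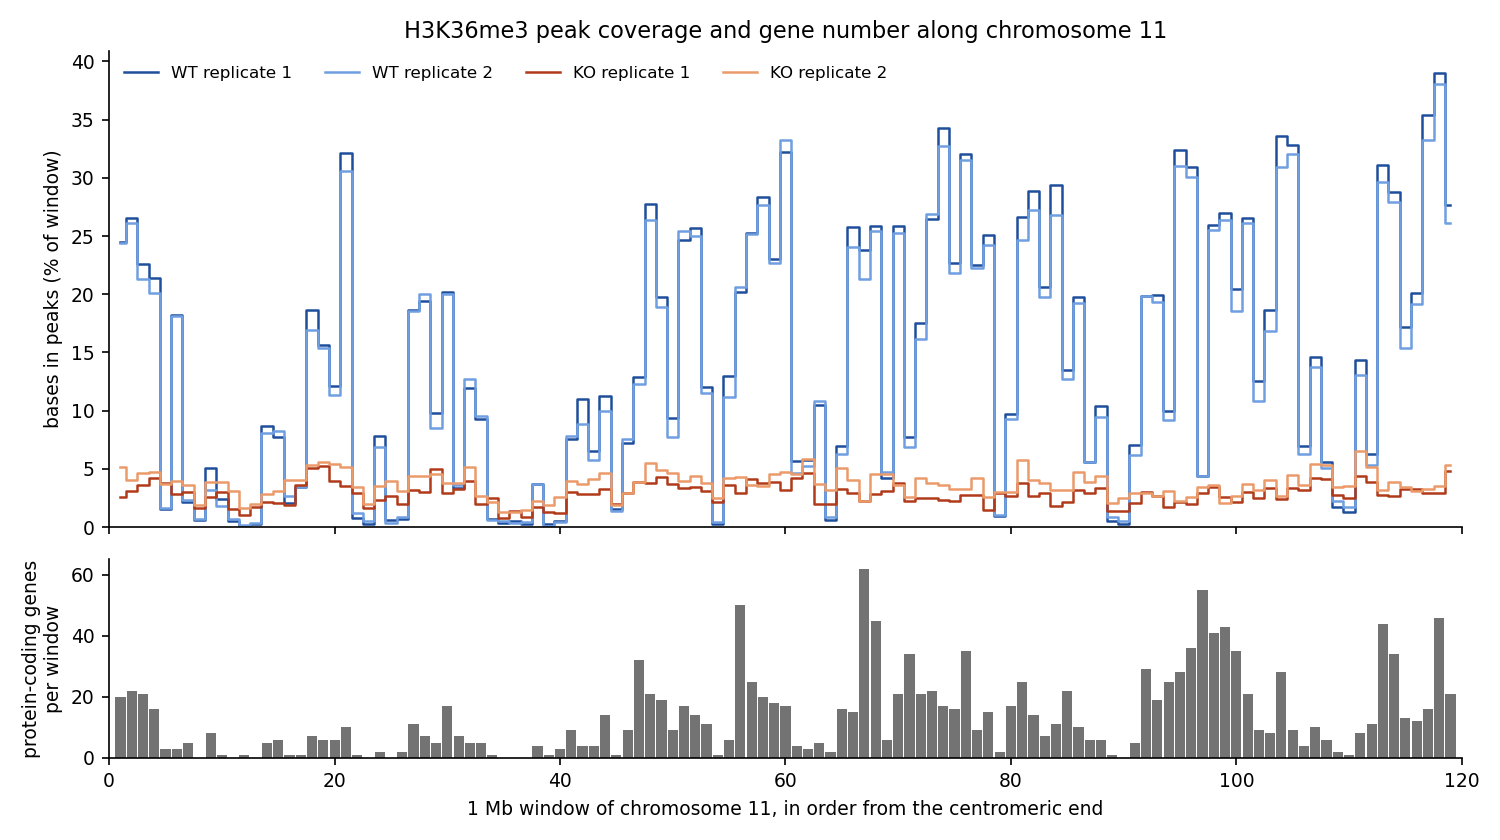
Upper panel: percent of each 1 Mb window under peaks (y axis) for the 4 libraries, with windows in order along chromosome 11 (x axis). Lower panel: protein-coding genes per window. WT lines swing between 0.123% and 38.5% (means of both libraries) and in part follow the gene counts (r = 0.64), and KO lines stay between 1.06% and 5.48%.

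The chromosome grows richer away from the centromeric end. The first 40 windows had a WT mean of 8.28% and 5.33 protein-coding genes per window, the next 40 had 16.1% and 16.7 genes, and the last 39 had 18.2% and 18.5 genes. The KO means of the same stretches were 3.08%, 3.45% and 3.27%. Of the windows under 2% in both WT libraries, 15 lie in the first stretch, 4 in the second and 3 in the last.

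Windows of at least 25% in both WT libraries, called rich here, numbered 26 of 119 (21.8%, where 6.42% of the windows of the autosomes and X were rich). This share follows from how the chromosome was chosen, and it was 5.04% with the lists against IgG and 4.202% with peaks at or above the median score. The most covered window begins at 120 Mb, where 39.0% and 38.0% of bases lay in WT peaks and 2.93% and 3.55% in KO peaks. It holds 46 protein-coding genes, among them P4hb, the beta subunit of prolyl hydroxylase and a folding enzyme of collagen, covered over 83.1% and 84.7% in WT against 0% and 4.43% in KO. Its longest gene is Ccdc57, at 34.3% and 31.0% in WT against 3.58% and 3.76% in KO. The window beginning at 119 Mb came next, with 35.4% and 33.3% in WT against 2.90% and 3.29% in KO, and includes Rptor, a subunit of the growth regulator mTORC1, and Rnf213, a large ubiquitin ligase. These windows and the last one of the chromosome form the longest run of rich windows, 3 in a row. After them came the window at 76 Mb, with 34.3% and 32.7% in WT against 2.36% and 3.59% in KO, which holds Abr and the Golgi transport gene Gosr1.

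Windows under 2% in both WT libraries, called lacking here, numbered 22 (18.5%, against 28.8% of the windows of the autosomes and X). The lowest begins at 14 Mb, with 0.0969% and 0.148% in WT against 1.01% and 1.60% in KO, and its only protein-coding gene is Pom121l12. The window at 41 Mb had 0.258% and 0.117% in WT against 1.31% and 1.90% in KO. The window at 56 Mb had 0.224% and 0.408% in WT against 2.15% and 2.51% in KO, with Nmur2, a neuropeptide receptor gene, at 0% in both WT libraries. The longest run of lacking windows covers 36 to 40 Mb, 4 in a row, with 0.452% and 0.468% in WT against 1.39% and 1.56% in KO. Its gene is Tenm2, a teneurin of neuronal synapses that spans 1230 kb and was covered over 0.587% and 0.615% in WT against 2.21% and 2.15% in KO (named after its values were seen). The longest stretch without any WT peak was 448 kb, from base 13984693 to base 14432657, and held 11 and 13 KO peaks and no protein-coding gene.

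In each of the 22 lacking windows both KO libraries lay above both WT libraries. Choosing windows by low WT coverage favours this order. The same order held in 701 of 746 lacking windows of the autosomes and X (94.0%), so it is the usual state of such windows. In all, both KO libraries exceeded both WT libraries in 26 windows (21.8%, against 30% of all windows), and both lay below in 87 (73.1%, against 61.9%).

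Across all windows fitted with limma, 114 of chromosome 11 passed the filter of 1% mean coverage. By adjusted p, 84 were lower in KO (73.7%, where 62.5% of all tested windows were) and 17 were higher (14.9%, where 21.7% were). The higher windows had little to begin with, at most 2.41% in a WT library, as in the window at 56 Mb, 2.01 points higher in KO (limma adjusted p = 9.68e-06). That window was named for its low WT coverage, so its p-value is not independent of the choice. Windows with a WT mean under 1%, such as this one, reach the filter only through their KO coverage. The number of higher windows rested on single libraries, with 2 without WT replicate 1, 3 without WT replicate 2 and 11 without KO replicate 2. It was 7 with the lists against IgG and 3 with peaks at or above the median score. Scaling each library to the same mean coverage changed the split to 56 lower and 39 higher (49.1% and 34.2% of the 114 tested). Over all 2414 tested windows 727 were then lower and 1297 higher. On chromosome 11 lower windows made up 58.9% of calls with scaling instead of 83.2%.

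A window was said to keep the mark if both KO libraries reached 50% of the lower WT library. This held for 39 windows (32.8%, against 47.4% of all windows), of which 22 are lacking windows with almost nothing to keep. Among the 86 windows of at least 5% in both WT libraries, 7 kept it (8.14%, against 8.74% of all such windows). The share was 14.0% without KO replicate 1, and 0% with the lists against IgG or with peaks at or above the median score. None of the 7 was rich, which the rule fixed in advance, as no window exceeded 6.57% in a KO library. Their WT means ran from 5.33% to 9.17%.

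The kept window closest to its WT level begins at 64 Mb, with 5.75% and 5.22% in WT against 4.66% and 5.88% in KO, where the genotypes overlap (limma adjusted p = 0.780). Its 3 genes include Cox10, needed to assemble cytochrome oxidase, and Elac2, which trims tRNA ends. These genes did not keep their mark: Elac2 had 87.8% and 84.1% in WT against 5.06% and 9.20% in KO, and Cox10 had 31.3% and 29.3% in WT against 5.46% and 6.88% in KO. Genotypes overlapped in the window at 110 Mb as well, with 5.61% and 5.04% in WT against 4.15% and 5.34% in KO (limma adjusted p = 0.426). Its most covered gene is Abca9, a lipid transporter, at 17.8% and 14.1% in WT against 8.90% and 7.23% in KO. In the window at 114 Mb, WT had 6.28% and 5.30% and KO 3.90% and 5.16%, and Ttyh2 in it fell from 64.6% and 61.2% to 5.22% and 8.23%. The remaining 4, at 31, 67, 89 and 108 Mb, were lower in KO by limma (adjusted p from 2.6e-08 to 0.00154), and those at 67 and 89 Mb lost this call without either WT library. In each, the most covered gene, picked by its WT coverage, was well below WT in KO. The longest genes varied. Asb3 at 31 Mb had 35.3% and 29.2% in WT against 5.94% and 5.66% in KO, and Ankfn1 at 89 Mb 0.837% and 0.869% against 3.20% and 2.95%. Gas7 at 67 Mb (6.87% and 7.44% against 4.18% and 5.82%) and Cep112 at 108 Mb (4.92% and 4.71% against 3.66% and 3.70%) fell less. Among the most covered genes, Sco1, at 67 Mb, had 78.6% and 77.1% in WT against 4.62% and 7.38% in KO. Trim25, at 89 Mb, had 83.6% and 81.2% against 0% and 2.64%. Bod1 at 31 Mb kept more, with 76.3% and 66.9% in WT against 25.6% and 19.3% in KO, and its call was lost without WT replicate 1.

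The highest KO windows did not stand out in WT. The window at 113 Mb led with 4.38% and 6.57% in KO and 14.4% and 13.02% in WT. It contains the zinc transporter gene Slc39a11, covered over 19.4% and 18.0% in WT against 6.33% and 9.31% in KO, and Cog1, a Golgi subunit gene, at 78.7% and 73.4% in WT against 2.78% and 2.11% in KO. The window at 21 Mb followed with 5.27% and 5.55% in KO and 15.7% and 15.3% in WT, and the window at 64 Mb described above came next. Of the 3 longest stretches without any KO peak, the longest, from base 37833488 to base 38020025, held 2 and 0 WT peaks and no protein-coding gene. The next 2 ran through strongly marked genes. From base 79956674 to base 80121532, over Utp6, Suz12, Crlf3 and Atad5, there were 66 and 55 WT peaks. From base 86563645 to base 86728289, over Tubd1, Vmp1, Ptrh2 and Cltc, the clathrin heavy chain, there were 51 and 56.

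WT coverage climbed with the number of protein-coding genes in a window and then levelled off. Windows of 0 to 4 genes had a WT mean of 2.57% (n = 34 windows), those of 5 to 9 genes 11.4% (28), those of 10 to 19 genes 21.0% (26), those of 20 to 29 genes 24.0% (17) and those of 30 or more 23.2% (14). KO means of the same classes were 2.62%, 3.72%, 3.59%, 3.54% and 3.004%, so the ratio of KO to WT went from 1.02 to 0.130. Over the 119 windows r was 0.64 and rho 0.81 between gene number and WT coverage, and 0.08 and 0.25 for KO coverage.

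**Figure D3:**
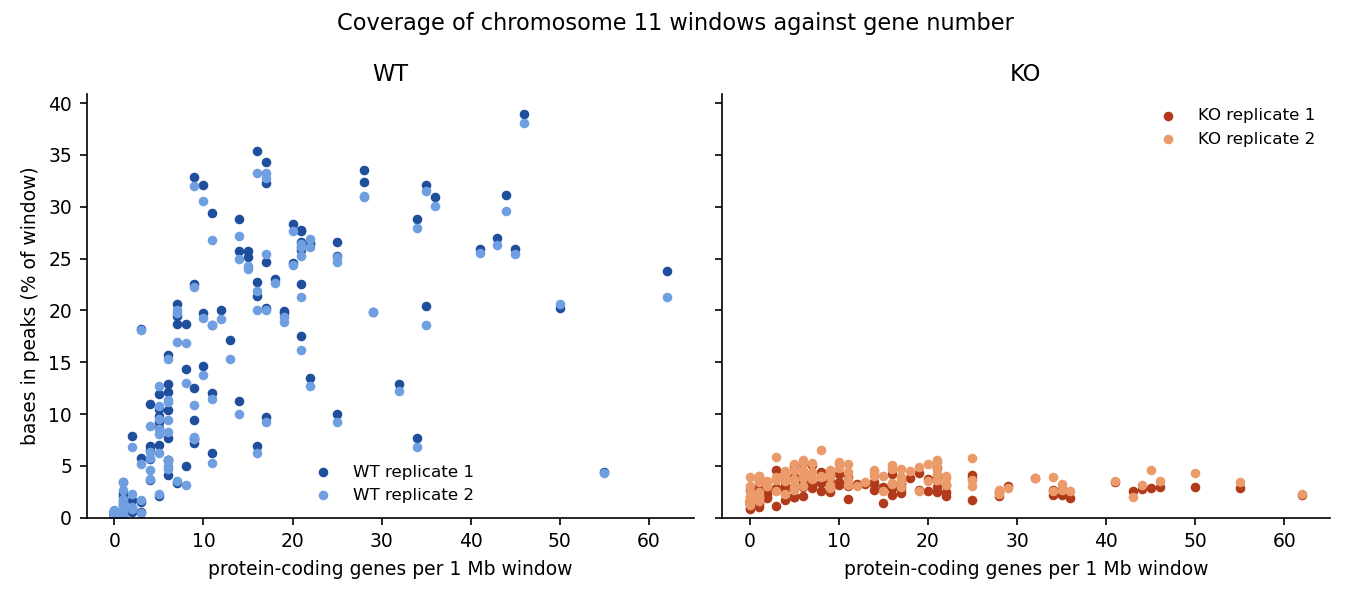
Percent of each 1 Mb window of chromosome 11 under peaks (y axis) against its number of protein-coding genes (x axis), WT libraries on the left and KO libraries on the right, 1 point per window and library. WT windows spread up to 39.0%, with a few gene-dense windows that stay low, such as the 1 with 55 genes at 4.41% and 4.35%; KO windows stay at or below 6.57% whatever the gene number.

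Some windows off this line hold gene clusters of other tissues. The window at 99 Mb has 55 protein-coding genes, second only to 62 in the window at 69 Mb, and had 4.41% and 4.35% in WT against 2.89% and 3.49% in KO. It holds keratin and keratin-associated protein genes of skin and hair. The window at 73 Mb, with 34 genes that include olfactory receptors such as Olfr397, had 7.74% and 6.88% in WT against 2.23% and 2.60% in KO. In the other direction the window at 8 Mb has 3 genes and had 18.2% and 18.1% in WT against 2.88% and 3.98% in KO, with Tns3, a tensin of cell adhesions, as its longest and most covered gene. These windows were chosen after their values were seen.

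Gene by gene, the chromosome has 1602 protein-coding genes. Of these, 434 were covered over at least 50% in both WT libraries (27.1%, against 22.3% of all genes). Another 337 had no WT peak at all (21.0%, against 25.5%). Of the 434, 403 were under 10% in both KO libraries, 116 were at 0% in both and 2 stayed at 25% or more. Over all chromosomes, 4347 of 4878 such genes were under 10%, 1201 were at 0% and 23 stayed at 25% or more. In limma's fit over all genes, 911 genes of the chromosome passed the filter of 10% mean coverage. By adjusted p, 850 were lower in KO (93.3%, where 92.6% of all tested genes were), 2 were higher (0.220%, where 0.555% were) and 59 did not pass. A gene reaches this filter mostly through its WT coverage, so the share that fell was largely set by the filter. Without it, 1392 genes of the chromosome were tested, 888 were lower (63.8%) and 31 higher (2.23%), with a median change of -33.5 points. Over all 18282 genes then tested, 10696 were lower and 493 higher. With the filter the median change was -49.8 points, against -47.7 over all tested genes. With each library scaled to the same mean coverage the median moved to -15.2 points. Of the 911 genes 315 were then lower and 15 higher, against 3185 and 361 of the 10804 tested over all chromosomes.

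The largest falls among genes of at least 10 kb were spread over the chromosome and included genes for splicing, nuclear import and translation. Rnf213 had 90.8% and 90.05% of its 97.5 kb in WT peaks and 1.09% and 1.83% in KO peaks. 2610507B11Rik had 91.7% and 88.0% in WT against 0% in both KO libraries. Sf3a1, a subunit of the U2 splicing complex, had 87.8% and 88.5% in WT against 2.59% and 0% in KO. Mybbp1a, a nucleolar protein gene, had 87.8% and 85.0% in WT against 0% in both KO libraries. Kpnb1, the nuclear import receptor importin beta, had 82.6% and 89.9% in WT against 0% and 2.27% in KO. The others of the 8 are Usp36, 4933428G20Rik and Rars, an aminoacyl-tRNA synthetase gene. The 8 falls, by which these genes were picked, ranged from 85.1 to 89.8 points.

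Genes of at least 10 kb that held the most in KO were Zfp867, Zfp2, Gm12258, Zfp879 and Cd300lb. Zfp867, a zinc finger gene, had 57.0% and 61.0% in WT against 40.9% and 28.5% in KO. Zfp2, of the same kind, had 77.2% and 78.9% in WT against 19.9% and 39.0% in KO. Zfp879 overlapped between genotypes, at 38.3% and 18.2% in WT against 4.03% and 22.5% in KO (limma adjusted p = 0.241). The adjusted p of Zfp867 was 0.0142 and that of Zfp2 0.00519, and leaving out either WT library took both past the threshold (0.203 and 0.241 for Zfp867, 0.165 and 0.171 for Zfp2). The gene Psme2b, a short copy of a proteasome activator gene that may share reads with its parent, had 80.4% and 92.0% in WT against 57.2% and 58.1% in KO, but 0% in both KO lists called against IgG.

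The 2 genes higher in KO are short. Both were at 0% in WT and passed the filter only through their KO coverage, so these calls are not independent of the filter. Olfr1377, an olfactory receptor gene of 0.924 kb, had 0% in WT against 66.9% and 86.1% in KO, and 0% in all 4 lists against IgG. Gm11554, of 0.777 kb, had 0% in WT against 67.8% and 41.6% in KO, also in the lists against IgG. A single peak covers most of a gene of this length, and both calls were lost without either WT library.

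Lists of genes by function show which parts of the chromosome carried the mark. Counts of genes that fell are to be read against the 92.6% of all tested genes that did, and no list is set apart by a count near it. Members passed the filter mostly through their WT coverage, so these counts were largely set by it. Without it, 10696 of 18282 genes tested over all chromosomes were lower. On this chromosome 14 of 18 signalling genes (1 higher) and 13 of 15 cell cycle genes then were. So were 11 of 12 stromal and 17 of 21 zinc finger genes. In the immune lists 6 of 8 Schlafen, 3 of 9 Ccl, 8 of 11 Cd300 and 5 of 14 haematopoietic genes (1 higher) were. In the transcription and RNA processing list 22 of 22 genes were tested and all 22 fell, with a list mean of 61.0% ± 3.12 in WT and 1.86% ± 0.508 in KO (SD, n = 2 libraries). Supt6, an elongation factor that travels with RNA polymerase II, had 84.1% and 87.3% in WT against 3.68% and 2.69% in KO. Smg6, an endonuclease of RNA decay in a gene of 239 kb, was the lowest of the list with 25.7% and 27.5% in WT against 2.38% and 3.54% in KO. The median change of this list was -64.7 points. With each library scaled to the same mean it was -22.4 points, and 8 of the 22 fell.

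Most proteasome and ribosomal protein genes had little or no coverage left in KO. This is common on the chromosome, where the median gene had 0% and 1.12% in the KO libraries. The ribosomal protein genes are also short, with a median of 3.93 kb. All 10 proteasome genes fell (7 with scaling), from a mean of 69.0% ± 0.432 to 6.85% ± 0.319. The exception in size is Psme2b, described above, at 57.2% and 58.1% in KO, while the median of the 10 genes in KO was 0.604%. Psmd3, of the regulatory particle, had 82.9% and 77.1% in WT against 0% in both KO libraries, and Psmb6, of the catalytic core, 53.1% and 63.3% in WT and 0% in both. Of 8 ribosomal protein genes 7 fell (5 with scaling), from a mean of 55.7% ± 2.29 to 0.143% ± 0.203. Rpl23 had 79.5% and 78.0% in WT against 0% in both KO libraries. The 8th, Rps27a, had 43.9% and 16.6% in WT and 0% in both (limma adjusted p = 0.0534).

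Genes of the stromal cell and its matrix behaved alike. Of 12, 10 were tested and all 10 fell, from a mean of 51.4% ± 1.41 to 2.39% ± 0.197. With scaling 3 of the 10 fell, and against IgG 6 of 7 tested. Fasn, the fatty acid synthase gene, had 85.1% and 80.4% in WT against 7.44% and 2.80% in KO. Sparc, a collagen-binding matrix protein gene, had 70.0% and 66.5% in WT against 4.23% and 2.25% in KO. Col1a1, the main chain of bone collagen, had 73.3% and 64.3% in WT against 3.45% and 0% in KO, and was at 0% in all 4 lists against IgG (Sparc and Col1a1 were named after their values were seen). Against IgG the list mean was 27.0% in WT and 1.41% in KO. The lowest of the list in WT was the integrin subunit gene Itgb4, where genotypes overlapped, at 14.0% and 2.84% in WT against 8.93% and 3.29% in KO. Next was the cartilage regulator Sox9, at 11.4% and 8.15% in WT against 0% in both KO libraries. Neither passed the filter for the test.

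In the list of cell cycle and DNA repair genes 11 of 15 were tested and 11 fell, with means of 39.7% ± 1.19 and 2.57% ± 0.475 (SD, n = 2). Of these genes 3 fell with scaling, 7 of 7 tested against IgG and 7 of 8 tested without WT replicate 2. Lig3, a DNA ligase, had 84.3% and 80.5% in WT against 6.02% and 5.06% in KO. Rad51c, a recombination gene, was the lowest in WT, at 1.99% and 0%. Of 18 signalling genes 12 were tested and 12 fell, with means of 34.4% ± 1.02 and 2.66% ± 0.701, and 4 of the 12 fell with scaling. The neighbours Stat3 and Stat5a, transcription factors of cytokine signalling, had 66.4% and 66.1%, and 77.3% and 76.3%, in WT and at most 3.56% in KO. The neighbours Wnt3 and Wnt9b, secreted ligands, were at most 1.10% in WT and between 3.22% and 8.62% in KO.

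Zinc finger genes had the highest mean KO coverage of the 21 lists. Of 21, 18 were tested and 17 fell, from 47.7% ± 1.32 to 9.07% ± 3.27. Without WT replicate 1 the count was 10 and without WT replicate 2 it was 11. Zfp207 had 72.8% and 78.9% in WT against 0% in both KO libraries, and Zfp735 and Zfp616 had 0% in both WT libraries. With each library scaled to the same mean, the list's median change turned from -44.4 to 12.8 points and 4 genes were lower. Zinc finger genes share repeated sequence, so reads may be split between copies, and the part of this in their KO values was not tested.

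Immune gene clusters carried the mark in some members. Of 8 Schlafen genes, linked to the growth of immune cells, 7 were tested and 6 fell, though the list's median of -48.7 points turned to 8.42 with each library scaled to the same mean. Slfn8 had 85.5% and 83.1% in WT against 2.78% and 3.18% in KO, and Slfn5 66.4% and 71.0% in WT against 0% in both KO libraries. Of 11 Ccl chemokine genes 4 were tested and 3 fell (0, with none tested, for peaks at or above the median score). Ccl5 had 65.1% and 53.0% in WT against 0% and 9.45% in KO, while Ccl3 and Ccl8 had no peak in any library. Of 12 Cd300 receptor genes 5 were tested and 5 fell (1 of 1 tested at or above the median score). The highest in WT was Cd300ld5 at 23.4% and 42.2%, with 0% in both KO libraries. Of 14 haematopoietic markers 6 were tested and 4 fell (0 of 1 tested at or above the median score). Cd68, a macrophage gene, had 37.0% and 71.3% in WT against 0% in both KO libraries. Left-out libraries lowered these counts: without WT replicate 2 to 1 chemokine and 0 Cd300 genes, without WT replicate 1 or KO replicate 1 to 2 Cd300 genes, and without any of the 4 libraries in turn to 2 haematopoietic markers. The call of Ccl5 was lost without either WT library, and those of Cd300ld5 and Cd68 without either KO library. The myeloid gene Mpo and the lymphoid gene Ikzf3 were at 0% in WT. The type 2 cytokine genes Il3 and Il5 were at 0% in WT too, with 35.4% and 8.96% in KO replicate 1 and 0% in KO replicate 2.

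**Figure D4:**
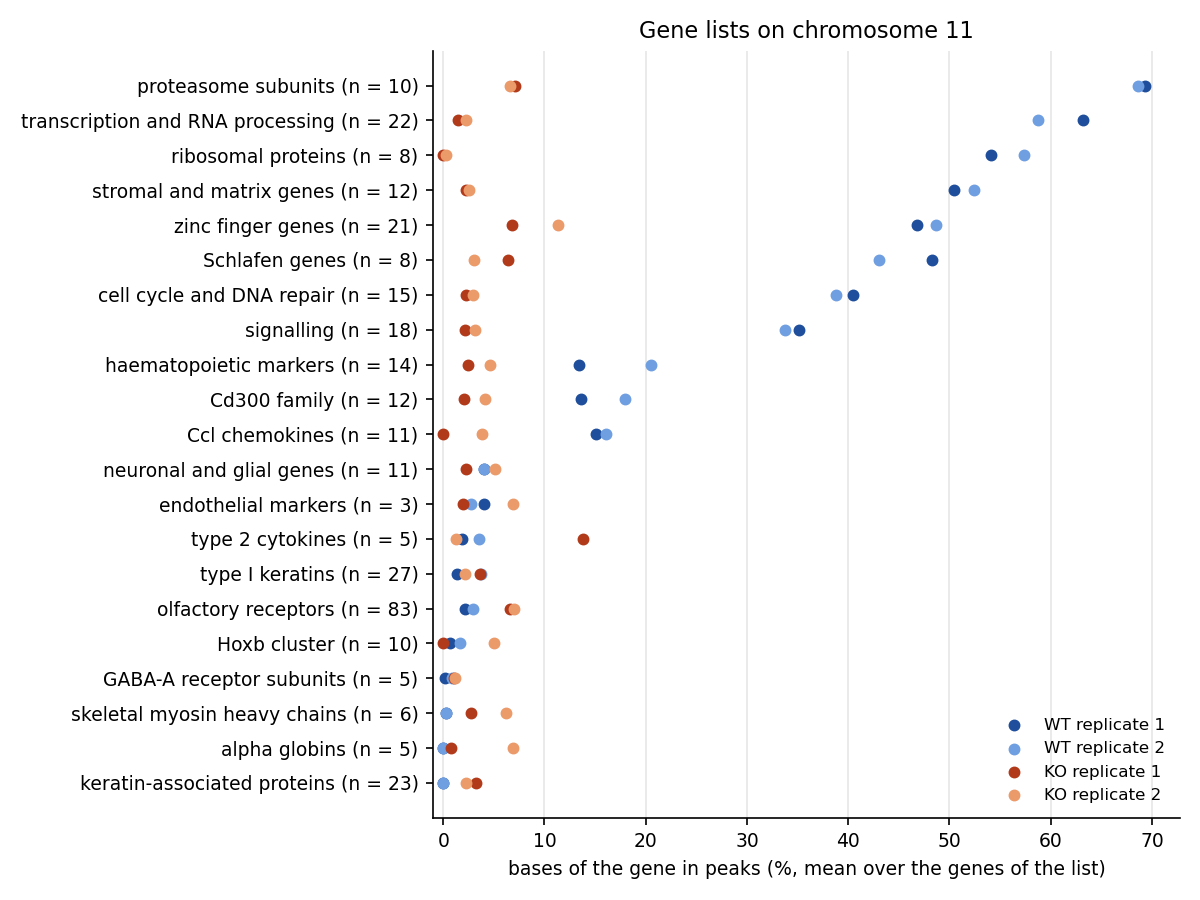
Mean percent of the gene under peaks (x axis) over the genes of each list on chromosome 11 (y axis, with the number of genes), 1 point per library. In WT the lists run from 0% for keratin-associated proteins to 69.3% and 68.7% for proteasome subunits, and in KO no list exceeds 13.8%.

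Clusters of genes for other tissues had almost no mark. Of 83 olfactory receptor genes 72 were at 0% in both WT libraries, and list means were 2.14% and 2.92% in WT against 6.59% and 7.01% in KO, where a single peak covers much of a gene with a median length of 0.954 kb. All 23 keratin-associated protein genes were at 0% in WT, as were 16 of 27 type I keratins, 5 of 6 skeletal myosin heavy chains, all 5 alpha globin genes and 8 of 10 Hoxb genes. Krt10 was the most covered keratin gene with 16.2% and 14.4% in WT against 0% in both KO libraries. Hoxb3 had 6.48% and 3.72% in WT against 0% and 5.28% in KO. The neuronal and glial list averaged 4.00% in both WT libraries and 2.26% and 5.12% in KO, with Gfap, of astrocytes, at 0% in all 4. None of the genes in the Hoxb, type I keratin, myosin, globin, GABA-A receptor or neuronal lists passed the filter for the test.

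Within a covered gene the WT mark began some way behind the start. This could be read in 769 of 1602 genes, those with a RefSeq promoter whose start lies within 10 bp of an edge of the gene. Among the 135 of at least 10 kb and at least 50% in both WT libraries, the kilobase before the start was covered over 1.39% and 1.03% in WT and the first kilobase after it over 1.46% and 1.28%. Coverage rose to 16.2% and 17.2% in the second kilobase and to 52.3% and 42.2% in the next. With each gene cut into 10 equal parts, WT means went from 14.5% in part 1 to 86.7% in part 8. In KO the same genes had between 0.567% and 4.57% in each of these parts, with the lowest value in part 1. The 101 genes of at least 10 kb under 10% in WT had KO means of 2.54% to 4.68% in the same parts.

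**Figure D5:**
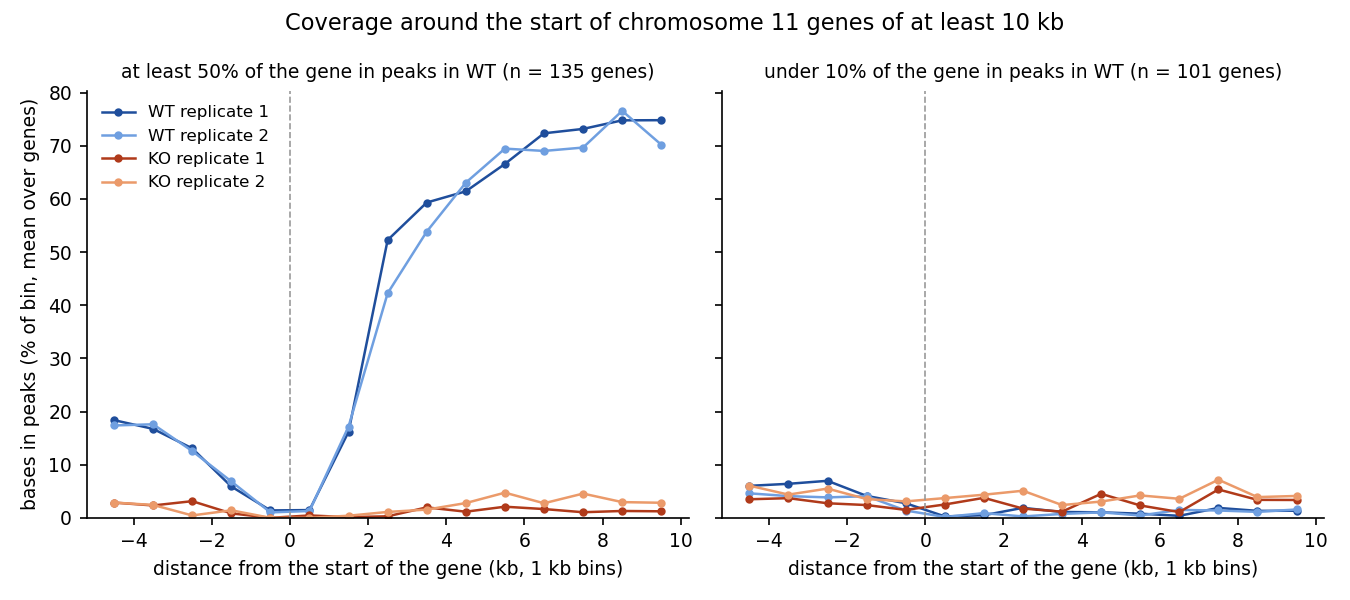
Percent of each 1 kb bin under peaks (y axis, mean over genes) by distance from the start of the gene (x axis, kb), 1 line per library, for 135 covered genes on the left and 101 uncovered genes on the right. In covered genes the WT lines lie between 1.03% and 1.46% on both sides of the start and climb to 74.8% and 70.2% in the last bin, and the KO lines stay under 5%; in uncovered genes no line exceeds 7.17%.

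The promoters of covered and uncovered genes also differed in sequence, a feature the peaks did not choose. The 208 genes at 50% or more in WT had a median of 21 CG in the 300 bases from 250 before to 50 after the start, and 78.8% of them had an observed to expected ratio of CG of at least 0.6. The 219 genes at 0% in WT had a median of 3 CG, and 12.3% reached that ratio. TATAAA, read on both strands (TTTATA on the other), a form of the TATA box, was found in 5.29% of the first set, 35.2% of the second and 17.3% of all 769 promoters. A match is a description of these letters and not of a bound site. Median GC was 60.3% in the first set and 45% in the second. The part of base composition in these matches was not tested. Of the 208 promoters of covered genes, 9 and 6 were touched by a WT peak and 1 in each KO library, and of the 219 others 1 was touched in each WT library and 12 and 11 in KO.

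Of the 83 microRNA hairpins on the chromosome, 28 were touched by a peak in both WT libraries, 22 of these inside protein-coding spans. In the lists against IgG 18 were. In KO 26 of the 28 had no peak in either library, where 84.4% of all regions common to the WT libraries on the chromosome had none. No hairpin of the 83 was touched in both KO libraries, whose common regions span only 0.359 Mb of the chromosome. Neither count is read as a trait of microRNA genes. Mir103-1 in Pank3, Mir744 in Map2k4, and Mir22, Mir146 and Mir195a, whose sequences are printed above, were each covered over 100% in both WT libraries and in no KO library. Against IgG, Mir103-1 was at 0% in WT replicate 2 and Mir195a at 0% in WT replicate 1. Mir21a, inside Vmp1, was at 0% and 50.0% in WT against 0% in both KO libraries. Among the mature sequences of the 28 hairpins no seed was shared.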

How the data were processed

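H3K36me3 ChIP-seq was analysed from peak lists of 4 libraries. Per the submitters' processing notes, reads were aligned with Bowtie2 to GRCm38. The authors deposited 8 lists, 1 per library against Input and 1 against IgG of the same genotype, per the labels; peak names start with MACS, with caller settings not given in the sources used here. Each peak's score, as deposited, is on a scale not stated and served only as a filter within its list. Library depth is unknown, and deeper sequencing can yield more and wider peaks.

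Coverage is the percent of a window of 1 Mb, or of a RefSeq gene span (GRCm38.p6), under peaks. KO was compared with WT by limma 3.58.1 (R 4.3.3, trend and robust options, statmod 1.5.0) over all windows with a mean of at least 1% and all genes with at least 10% (Benjamini-Hochberg adjusted p under 0.05), and whole-chromosome measures by exact permutation tests. The fit was also run on simulated data with the spread of the WT pair in both groups, which does not test the spread of KO. Summaries used Python 3.11.15, numpy 2.4.6, pandas 2.3.3 and scipy 1.17.1. Named windows are the 3 highest and 3 lowest in WT, the 3 highest in KO, the kept ones and the longest lacking run. Named genes are the 8 largest falls, the highest in KO, the 2 highest and 2 lowest in WT of each list, and the longest and most covered gene of each named window. The chromosome, windows, lists and rules were chosen with earlier results of these data known. Alternatives were lists against IgG, a score filter, merged peaks, other windows, filters and scaling, a replicate block and leaving out each library.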

Additional observations from a re-analysis of the deposited data

How the results depend on the processing

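Depth is unknown and each group has 2 libraries, so no limit can be put on signal where no peak was called, and the exact tests cannot go below p = 0.333. KO coverage of the chromosome stayed below WT under each alternative run. With lists against IgG it was 11.9% in WT and 2.16% in KO (ratio 0.181), with peaks at or above the median score 10.4% and 1.63% (0.157), and with peaks within 1 kb merged 16.6% in WT. The cause of these and the following shifts was not tested.

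Rich windows made up 5.04% against IgG and 4.202% at or above the median score. Windows of 2 Mb gave 10% lacking, 11.7% rich and 21.7% kept. Among windows of at least 5% in WT, those kept were 0% against IgG, 0% by median score, 0% in windows of 2 Mb, 4.60% with peaks merged and 2.33% with KO at 75% of WT. With each library scaled to the same genome-wide coverage 67.2% of all windows were kept and 54.7% of those of at least 5%.

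Windows higher in KO by limma numbered 7 against IgG, 3 by median score, 0 with the filter at 5% and 39 with scaling. Genes higher in KO numbered 1 against IgG, 1 by median score, 31 with no filter and 15 with scaling. Genes lower in KO numbered 524 with the filter at 25%, which tests fewer genes, and 315 with scaling. Named differences turned positive with scaling, in scaled points: Abca9 45.4, Bod1 112.4, Ccdc57 6.56, Cd300lb 70.2, Cox10 23.9, Gm12258 57.6, Psme2b 334.6, Rptor 2.46, Slc39a11 40.5, Smg6 4.75, Ttyh2 9.28, Zfp2 145.2, Zfp867 202.8 and Zfp879 65.4, and the windows at 21 (0.460), 31 (3.57), 64 (6.76), 67 (3.74), 89 (2.96), 108 (2.35), 110 (5.81), 113 (1.55) and 114 Mb (5.07). With all 4 libraries, some lists had a count of lower genes smaller by over 1.5 times. Under scaling they were transcription and RNA processing (8), signalling (4), zinc finger (4), stromal (3), cell cycle (3), Schlafen (2), Cd300 (1), olfactory receptors (0) and haematopoietic (0). Against IgG they were stromal (6), cell cycle (7) and Cd300 (3). By median score they were Cd300 (1), haematopoietic (0), olfactory receptors (0) and Ccl chemokines (0, with none tested). With the filter at 25% they were cell cycle (7), signalling (5), Ccl chemokines (1), haematopoietic (1), Cd300 (0) and olfactory receptors (0). By median score the windows at 108 and 110 Mb turned to 0.370 and 0.418 points. With a library left out, the difference ran from -0.82 to 0.401 points for the window at 64 Mb, which was positive without WT replicate 1 (0.0525) and without KO replicate 1, and from -1.18 to 0.0112 for that at 110 Mb, positive without KO replicate 1.

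Leaving out each library gave 13.9% to 14.4% covered in WT and 2.87% to 3.67% in KO, a ratio of 0.203 to 0.260. Peak number ratios ran from 0.367 to 0.464, width ratios from 0.543 to 0.569 and ratios of the share in protein-coding spans from 0.498 to 0.518. WT regions without a KO peak ran from 80.3% to 92.3%, lacking windows from 18.5% to 19.3%, rich windows from 21.8% to 24.4%, kept windows from 30.3% to 37.8%, and kept ones of at least 5% from 6.82% to 14.0%. Lower windows numbered 80 to 89, higher windows 2 to 18, lower genes 686 to 801 and higher genes 0 to 11.

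Replicate numbers are shared by the genotypes, but nothing says that they pair samples: the replicate differences of WT and KO had r = -0.05 over windows and -0.00323 over genes. With the replicate as a block, 84 windows were lower and 16 higher, and 850 genes were lower and 2 higher. Abca9 (adjusted p = 0.108) and Slc39a11 (0.0506) then missed the threshold and Rps27a (0.0329) passed it.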
